A study of Mus musculus with 6 samples.

Results

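The 8 miRNAs described here form 3 seed families. A miRNA is a short RNA that guides a silencing complex to messenger RNAs, and its seed, bases 2 to 8 counted from the 5′ end, does most of the target recognition. The members were chosen by name as the assays mmu-miR-18a and mmu-miR-18b, mmu-miR-19a and mmu-miR-19b, and mmu-miR-25, mmu-miR-92a, mmu-miR-363 and mmu-miR-32, main strand only (the mouse prefix mmu is left out from here on). They are 8 of the 750 miRNA assays of a TaqMan low-density array, where real-time PCR is run on cards with primers and probe for 1 assay preloaded in each well. All 8 are on the card listed first, called card A. Monocytes were freshly isolated from 3 DBA/1 mice and each mouse gave 1 Ly6Chigh (classical, inflammatory) and 1 Ly6Clow (non-classical, patrolling) sample, 6 samples in all, with 10 ng of RNA each and no treatment named in the sample labels. Age, sex and sorting gates are not given in the sources used here. The values are threshold cycles (Ct), the PCR cycle at which a reaction passes a set fluorescence. A Ct higher by 1 is 1 log2 unit less template. Reactions without signal are listed at 40, and a reaction is called detected here at a Ct under 35. Expression is the U6 small nuclear RNA Ct of the same sample and card minus the Ct of the miRNA, a log2 scale on which 0 is the level of U6.

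Most of these miRNAs are cut from shared precursor transcripts. The miR-17/92 cluster is known as a driver of proliferation and survival in blood cell progenitors and lymphocytes. miR-25 and miR-92a act, among others, on regulators of cell death and of erythroid and endothelial cells. In the RefSeq annotation of GRCm38.p6, Mir18, Mir19a, Mir19b-1 and Mir92-1 lie in the 6-gene miR-17/92 cluster on chromosome 14, which spans 836 bases. Mir18b, Mir19b-2, Mir92-2 and Mir363 lie in the 6-gene cluster from Mir106a to Mir363 on chromosome X. Mir25 lies inside Mcm7, a gene of the replicative helicase, next to Mir93 and Mir106b on chromosome 5. Mir32 stands alone inside Tmem245 on chromosome 4. The deposited tables hold no coordinates, and those below come from RefSeq.

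All 8 mature sequences were found by name in RefSeq (GRCm38.p6). They are shown because the seed, in capitals, is what groups them, while the other bases are what separates members of a family. The miR-18 family is read from 2 genes.
miR-18a (Mir18, chr14:115043867-115043889, + strand): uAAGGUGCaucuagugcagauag
miR-18b (Mir18b, chrX:52742381-52742403, − strand): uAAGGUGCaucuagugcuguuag
The miR-19 family is read from 3 genes, 2 of which give the same miR-19b.
miR-19a (Mir19a, chr14:115044048-115044070, + strand): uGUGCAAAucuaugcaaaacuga
miR-19b (Mir19b-1, chr14:115044358-115044380, + strand, and Mir19b-2, chrX:52741991-52742013, − strand): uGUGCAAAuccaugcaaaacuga
The miR-25/92 family is read from 5 genes, 2 of which give the same miR-92a.
miR-25 (Mir25, chr5:138165332-138165353, − strand): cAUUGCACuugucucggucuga
miR-92a (Mir92-1, chr14:115044476-115044496, + strand, and Mir92-2, chrX:52741854-52741874, − strand): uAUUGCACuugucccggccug
miR-363 (Mir363, chrX:52741697-52741718, − strand): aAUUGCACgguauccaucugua
miR-32 (Mir32, chr4:56895272-56895293, − strand): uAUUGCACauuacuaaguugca

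With positions counted from the 5′ end, miR-18a and miR-18b differ by A18U and A20U and are identical at the other 21 of 23 positions. miR-19a and miR-19b differ by U11C alone. miR-25 and miR-92a share 18 of their first 21 bases, whereas miR-25 shares 9 of 22 with miR-363 and 13 of 22 with miR-32. No member differs from another of its family inside the seed. The seed of miR-18a differs at 1 position (A4G) from that of miR-17, the first miRNA of its cluster. Among the 1679 mature mouse miRNAs in the RefSeq table, the miR-18 seed is held by 2, the miR-19 seed by 2 and the miR-25/92 seed by 6. Of these 6, miR-92b and miR-367 are no members here. An assay for miR-367, a miRNA of pluripotent stem cells, is on card A and was listed at 40 in all 6 samples. How far an assay also reads a near-identical relative cannot be told from the values.

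The Ly6Chigh sample of mouse 1 stood apart on card A and was examined first. Over the 127 card A assays detected in at least 3 samples, Spearman's rho between its Ct values and each of the other 5 samples was 0.10 to 0.15, and pairs among those 5 reached 0.73 to 0.94. In it, miR-223 and both miR-142 strands, which define myeloid and other blood cells, were listed at 40, whereas miR-223 had a Ct of 16.96 to 21.95 in the other 5 samples. Of the 4 myeloid marker assays, 1 (miR-21) was detected there and 4 in every other sample. A signal under 35 that no other sample had was listed for 43 card A miRNAs, and 46 that were detected in all other samples were listed at 40. Epithelial miRNAs summed to 162% of U6 there, against 0.61% to 2.67% in the other samples. This sum rested mostly on miR-200b (Ct 21.98), with miR-200c at 29.97 and miR-141, miR-200a and miR-205 listed at 40. Of the 5 epithelial assays, 2 were detected there and 1 to 4 in the other samples. The liver, muscle and neuron miRNAs were also high there, with a sum of 6.27% of U6 against 0.0053% to 0.315% in the other samples. This sum rested on miR-9 (Ct 26.98) and miR-122 (28.98), with the further assays of that list at 40. The missing myeloid miRNAs and the low correlations set this card apart from those of the other 5 samples, and the cause was not tested. Differences between the subsets are therefore given below with and without this card. Lymphocyte miRNAs were detected in all samples (2 or 3 of 3 assays), with a summed level of 20.6% to 189% of U6 in Ly6Chigh and 50.8% to 176% in Ly6Clow samples. Of the erythroid assays, miR-144 and miR-486 were listed at 40 in all samples and miR-451 was detected in the 5 samples other than the Ly6Chigh sample of mouse 1, at no more than 0.314% of U6. Of the platelet and endothelial pair, miR-126-3p was detected in the same 5 samples. On card A, 109 to 146 miRNA assays were detected per sample. U6 had a Ct of 19.80 to 24.66, and the difference between the subsets in U6 was 2.86, 3.89 and −1.15 cycles in mice 1, 2 and 3.

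miR-19b was the most abundant member in the 5 samples other than the Ly6Chigh sample of mouse 1. Its Ct was 24.99, 22.97 and 20.98 in the Ly6Chigh samples of mice 1, 2 and 3 and 20.0, 19.97 and 22.99 in the Ly6Clow samples. It ranked between 3 and 8 among the detected card A miRNAs of those 5 samples and 15 in the deviating one. miR-19a, its relative with 1 different base, had a Ct of 28.97, 27.99 and 25.97 in the Ly6Chigh samples and of 24.96, 24.98 and 27.98 in the Ly6Clow samples. For both miRNAs the 2 subsets overlapped. Relative to U6, miR-19b was at −0.28 ± 2.00 (SD, n = 3) in Ly6Chigh and −0.16 ± 0.93 (SD, n = 3) in Ly6Clow monocytes, and miR-19a at −4.95 ± 1.50 and −5.14 ± 0.92.

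miR-25 was detected in all samples too. Its Ct was 26.98, 28.96 and 24.97 in the Ly6Chigh samples and 25.96, 25.97 and 26.97 in the Ly6Clow samples. Relative to U6 the 3 Ly6Chigh values lay close together, at −4.32, −4.30 and −4.20, above the Ly6Clow values of −6.16, −5.21 and −5.05. The −4.32 is from the deviating card of mouse 1. In raw Ct the subsets overlapped, so the separation appears only after U6 is subtracted, as it does for miR-18a.

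miR-18a had a Ct of 22.99, 30.99 and 26.98 in the Ly6Chigh samples and of 27.96, 28.96 and 29.98 in the Ly6Clow samples. Relative to U6 this gave −0.32, −6.34 and −6.20 in Ly6Chigh and −8.16, −8.20 and −8.06 in Ly6Clow monocytes. The Ly6Clow values lay close together and all Ly6Chigh values lay above them, with the value of mouse 1 far above the other two. In that sample miR-18a was the most abundant member, ranked 5 of the 109 detected card A miRNAs, against 58 to 80 in the other samples. miR-18b was detected in the same sample alone, at a Ct of 25.99, and listed at 40 in the other 5.

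The other 3 members of the miR-25/92 family were detected in some samples only. miR-32 had a Ct of 32.98, 32.98 and 33.99 in the Ly6Clow samples and of 32.98 in the Ly6Chigh sample of mouse 3, and was listed at 40 in the Ly6Chigh samples of mice 1 and 2. Wherever detected it was the lowest of the detected members. miR-363 was detected in the Ly6Clow samples of mice 1 and 3, at 31.05 and 30.95, and in no Ly6Chigh sample. miR-92a had a Ct of 25.96 in the Ly6Chigh sample of mouse 2 and of 28.95 and 22.96 in the Ly6Clow samples of mice 1 and 2, and was listed at 40 in both samples of mouse 3 and in the Ly6Chigh sample of mouse 1. The detected values did not separate the subsets.

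**Figure D1:**
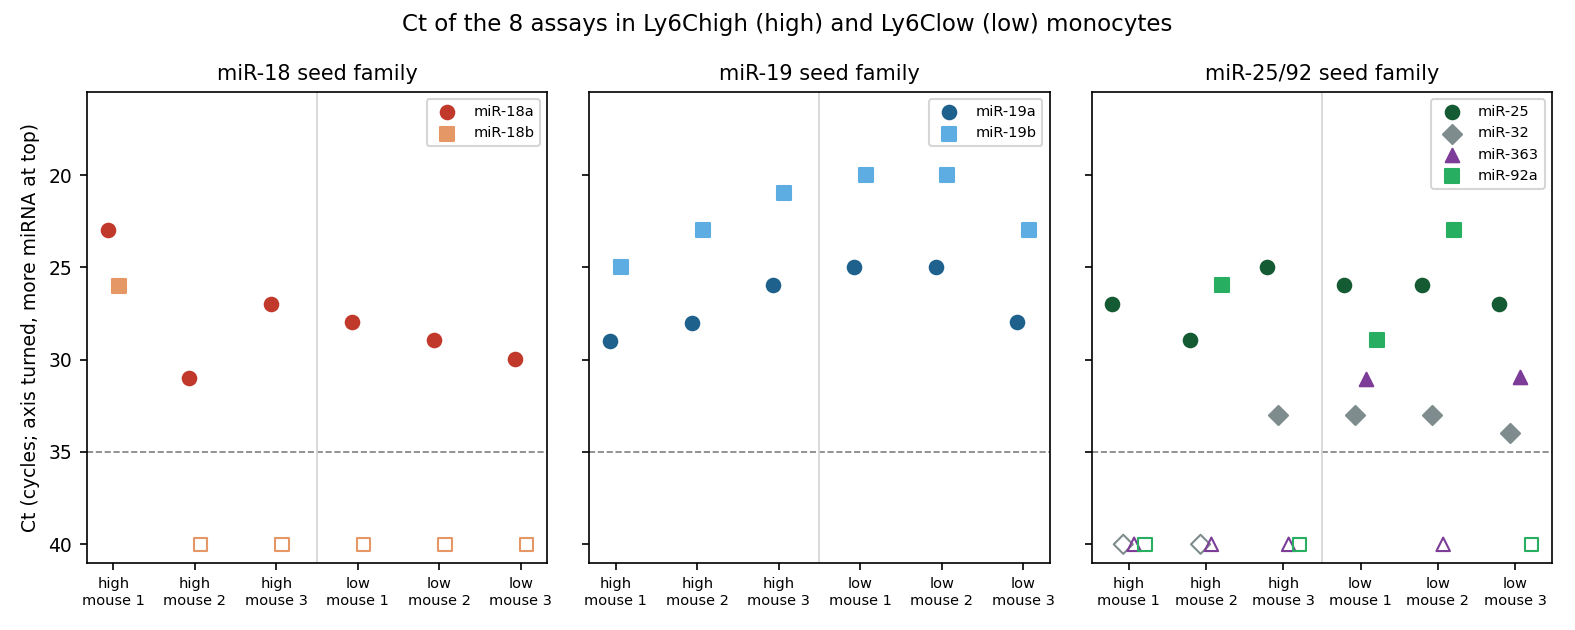
Ct of each of the 8 assays (vertical axis, in cycles, turned so that more miRNA is at the top) in the 3 Ly6Chigh and the 3 Ly6Clow samples (horizontal axis), 1 panel per seed family. Open symbols at 40 are reactions without signal and the dashed line marks the Ct of 35. miR-19a and miR-19b run in parallel, miR-18b has a signal in 1 sample, and miR-92a is at 40 in both samples of mouse 3.

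In Ly6Clow monocytes the mean levels relative to U6 ran, from high to low, in the order miR-19b, miR-19a (−5.14), miR-25 (−5.47 ± 0.60), miR-18a (−8.14 ± 0.07), miR-92a (−9.81 ± 7.96) and miR-32 (−12.49 ± 0.60), all SD with n = 3. Of the neighbours in this order, miR-19a and miR-25 lay within the larger of their SDs of each other, and miR-92a could not be placed because its SD exceeded its distance to miR-18a and to miR-32. In Ly6Chigh monocytes miR-25 (−4.27 ± 0.06), miR-18a (−4.29 ± 3.43) and miR-19a lay within the larger of their SDs of each other. Without the sample of mouse 1, the Ly6Chigh means of the remaining 2 samples were 0.74 for miR-19b, −4.25 for miR-25, −4.27 for miR-19a and −6.27 for miR-18a. Different assays amplify with their own efficiency, so distances between miRNAs hold only approximately.

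The main comparison asked whether the subsets differed in any member. It was made with limma over the 201 miRNA assays detected in at least 3 samples, with Benjamini-Hochberg adjustment, and 6 of the 8 members entered it. miR-18b (1 sample) and miR-363 (2 samples) did not pass this filter. None of the 6 had an adjusted p of 0.05 or less, and neither had any other assay (0% of 201 called). The adjusted p was 0.985 for each. At an unadjusted p under 0.05, 0 of the 6 and 2 of all 201 (0.995%) were called. Mean differences between Ly6Chigh and Ly6Clow monocytes were 3.85 (standard error 2.10) for miR-18a, 1.20 (1.36) for miR-25, 0.20 (1.57) for miR-19a, −0.13 (1.69) for miR-19b, −2.48 (1.83) for miR-32 and −2.81 (6.14) for miR-92a, on the log2 scale. The Ly6Chigh and Ly6Clow values did not overlap for miR-18a and miR-25, both higher in Ly6Chigh monocytes relative to U6, and overlapped for the other 4. Without normalization the difference of miR-25 was −0.67 and that of miR-18a 1.99, with overlapping subsets in both. Over all tested assays, 2.99% did not overlap with higher and 2.49% with lower values in Ly6Chigh monocytes. An exact 2-sided permutation test gave p = 0.1 for miR-18a and for miR-25, the smallest p that 3 samples against 3 allow, and 0.3 to 1 for the others. Without the Ly6Chigh sample of mouse 1, miR-18a and miR-25 again did not overlap between the subsets. In that comparison 14.9% of all tested assays did not overlap with higher and 3.48% with lower values in Ly6Chigh monocytes. The exact permutation p was then 0.2 for both, the smallest that 2 samples against 3 gave, and 0.6 to 1 for the others.

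Without the Ly6Chigh sample of mouse 1, the differences of the detected members drew together. They were 1.87 (standard error 0.75) for miR-18a, 1.22 (0.84) for miR-25, 0.89 (1.11) for miR-19b and 0.88 (1.11) for miR-19a, with limma adjusted p of 0.965, 0.965, 0.997 and 0.997. The difference of miR-18a was thus reduced by more than 1.5 times and that of miR-19b turned its sign. For miR-32 it was −1.29 and for miR-92a −0.46. When mouse 1 was left out and mice were fitted as blocks, miR-18a differed by 1.86 (standard error 0.22), with a limma p of 0.0228 before and 0.443 after adjustment. With 2 mice left, the standard error was the same 0.22 for miR-19a, miR-19b and miR-25. It therefore does not measure the precision of miR-18a alone. In that fit 6.97% of the 201 assays had an unadjusted p under 0.05 and higher values in Ly6Chigh monocytes, and 0% passed after adjustment.

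Because both samples of a mouse carry their own U6 value, the differences were also read within each mouse. In mouse 2 the log2 difference between Ly6Chigh and Ly6Clow was 0.88 for miR-19a, 0.89 for miR-19b, 0.90 for miR-25 and 0.90 for miR-92a, against 1.87 for miR-18a. In mouse 3 it was 0.86 for miR-19a, 0.86 for miR-19b and 0.85 for miR-25, against 1.86 for miR-18a and −0.14 for miR-32. In raw Ct these were steps of 3 cycles later in Ly6Chigh for the first group in mouse 2 and 2 cycles earlier in mouse 3, and for miR-18a of 2 cycles later and 3 cycles earlier. The members of the miR-19 and miR-25/92 families detected in both samples of mouse 2 therefore differed by the same step, and miR-18a was 1 log2 unit higher than these relative to U6.

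These steps were set against all other assays. Ct values in the tables lie close to whole numbers, and 32 of the 34 detected member reactions were within 0.05 cycles of one (the largest distance was 0.052). Among the tested card A assays with signal in both samples, the median difference was 0.88 in mouse 2 (103 assays) and 0.83 in mouse 3 (112 assays). miR-19a, miR-19b and miR-25 thus sat on the median step of their card, a step held by 30 assays in mouse 2 and 44 in mouse 3 within 0.1 cycles, themselves included. Of 94 card A assays with signal in the 4 samples of mice 2 and 3, 17 shared this pair of steps in both mice, among them miR-20a and miR-20b of the same clusters and miR-223. Of the further cluster partners, miR-17, miR-93, miR-106a and miR-106b did not share it. The step of miR-18a was shared in both mice by 9 assays, itself included. By more than 0.1 cycles, 9.7% of assays lay above it in mouse 2 and 1.8% in mouse 3, and 0 of the 94 in both mice. miR-17, miR-139-5p and miR-365 lay 1 step above it in mouse 2 (2.91, 2.88 and 2.90) and level with it in mouse 3. miR-301a and miR-301b lay level in mouse 2 and above in mouse 3 (2.85 and 2.86). With the assays on its own step, these were at or above miR-18a in both mice. Higher values in Ly6Chigh monocytes in both mice were seen in 40.4% of the 94 assays, so the direction alone sets no member apart.

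In mouse 1 the 4 members detected in both samples spread widely. The differences were 7.84 for miR-18a, 1.84 for miR-25, −1.15 for miR-19a and −2.13 for miR-19b, and those of all 50 assays with signal in both samples had a median of 0.83 and quartiles of −1.16 and 3.90. In mice 2 and 3 the quartiles were −0.11 and 1.89, and −0.15 and 0.87. The part of the deviating card in the values of mouse 1 was not tested.

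**Figure D2:**
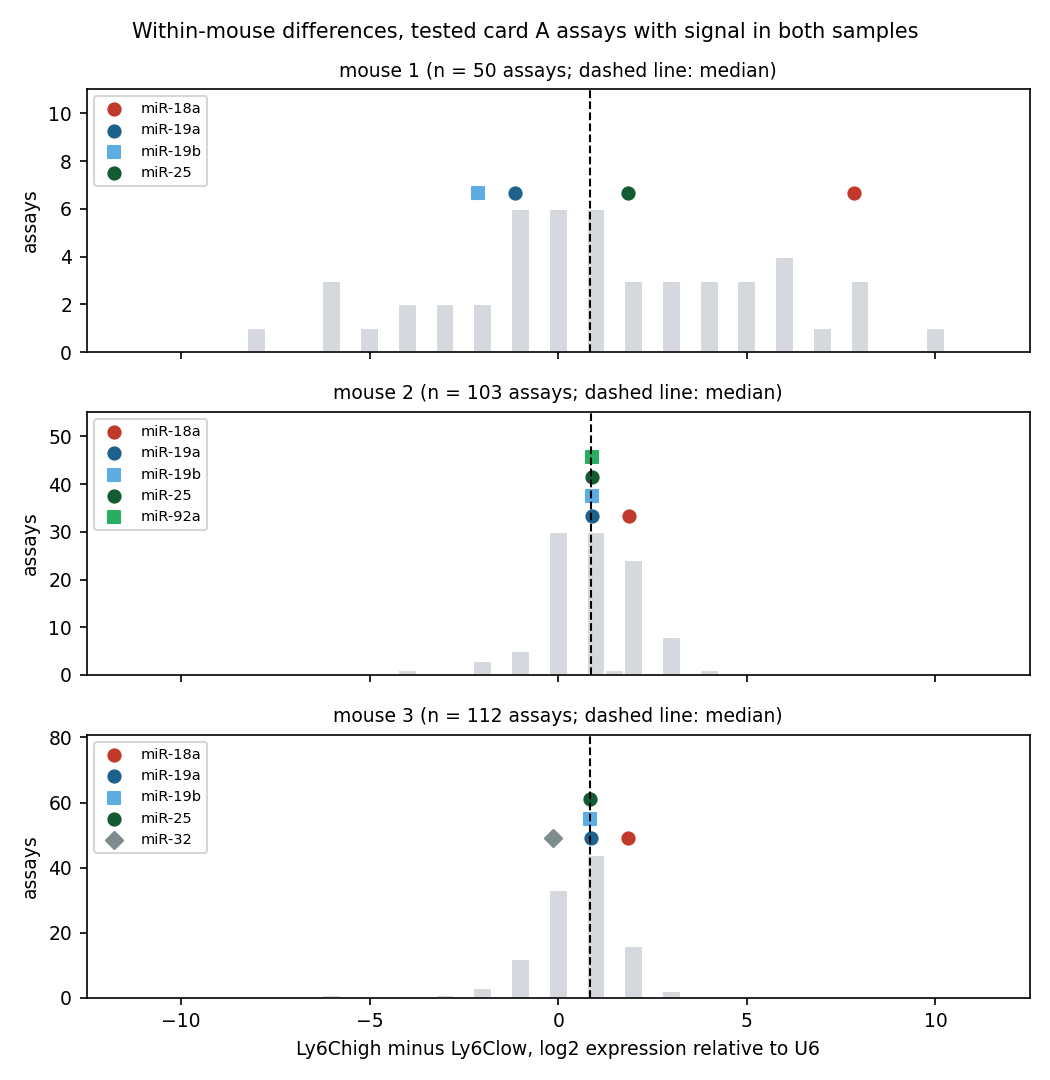
Number of tested card A assays (vertical axis) by their difference between Ly6Chigh and Ly6Clow within a mouse (horizontal axis, log2 expression relative to U6), 1 panel per mouse, for assays with signal in both samples. Coloured symbols above the bars mark the members at their difference on the horizontal axis (their height carries no value), and the dashed line is the median of the assays shown. In mice 2 and 3, miR-19a, miR-19b and miR-25 stand on the median and miR-18a stands 1 step to the right of it, while in mouse 1 the differences are spread over a wide range.

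U6 cancels when 2 members are compared in the same sample, so the families were also set against each other by the gap between their Ct values. miR-19a came 5.02, 4.99, 4.96, 5.01 and 4.99 cycles after miR-19b in the Ly6Chigh samples of mice 2 and 3 and in the Ly6Clow samples of mice 1, 2 and 3. The gap of these relatives thus varied by 0.06 cycles over 5 samples whose miR-19b Ct ranged from 19.97 to 22.99. Of the 780 pairs among the 40 card A assays detected in all 6 samples, 3.72% kept a gap within 0.1 cycles over the same 5 samples, and the median pair varied by 2.02 cycles. In the Ly6Chigh sample of mouse 1 the gap was 3.98 cycles.

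miR-25 came after miR-19b by 5.99 and 3.99 cycles in the Ly6Chigh samples of mice 2 and 3 and by 5.97, 6.00 and 3.98 cycles in the Ly6Clow samples of mice 1, 2 and 3. The gap was alike in both subsets of mouse 2 and in both subsets of mouse 3, and 2 cycles smaller in mouse 3 than in mouse 2. In the Ly6Chigh sample of mouse 1 it was 1.99 cycles, against 5.97 in the Ly6Clow sample.

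miR-18a came after miR-19b by 8.02 and 5.99 cycles in the Ly6Chigh samples of mice 2 and 3, and by 7.97, 8.99 and 7.0 cycles in the Ly6Clow samples. Within mice 2 and 3 it was 1 cycle closer to miR-19b in Ly6Chigh than in Ly6Clow monocytes. The difference between mice was larger than this, since the gap in the Ly6Chigh sample of mouse 2 exceeded that in the Ly6Clow sample of mouse 3. Against miR-25, miR-18a came later by 2.03 and 2.00 cycles in Ly6Chigh and by 2.00, 3.00 and 3.01 cycles in Ly6Clow monocytes, so that the Ly6Clow sample of mouse 1 had the gap of the Ly6Chigh samples. In the Ly6Chigh sample of mouse 1, miR-18a came before both, by −2.00 cycles against miR-19b and by −3.99 cycles against miR-25.

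**Figure D3:**
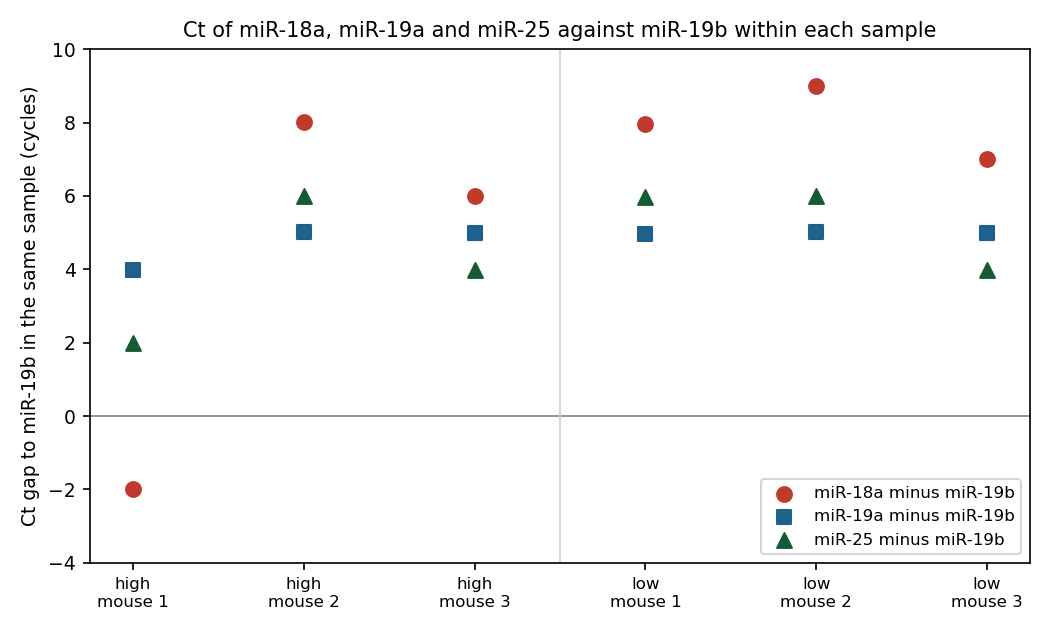
Ct gap of miR-18a, miR-19a and miR-25 to miR-19b in the same sample (vertical axis, cycles), for the 3 Ly6Chigh and the 3 Ly6Clow samples (horizontal axis). A lower gap means more of the miRNA relative to miR-19b. The miR-19a points stay at 5 cycles in all but the Ly6Chigh sample of mouse 1, the miR-25 points differ between mice, and the miR-18a points are 1 cycle lower in Ly6Chigh than in Ly6Clow within mice 2 and 3.

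Averaged over the tested members of each family, the difference between Ly6Chigh and Ly6Clow was 7.84, 1.87 and 1.86 in mice 1, 2 and 3 for the miR-18 family (miR-18a alone), −1.64, 0.89 and 0.86 for the miR-19 family and −3.50, −0.44 and −0.15 for the miR-25/92 family. The miR-18 family lay above the miR-19 family by 9.48, 0.98 and 1.00, and the miR-25/92 family below it by a difference of −1.86, −1.33 and −1.0. The direction was the same in all 3 mice, but with quantile normalization the first gap was 9.06, −0.27 and 0.41, turned in mouse 2. The second gap rested on undetected reactions of miR-92a and miR-32. With these left out as missing it was 3.49, 0.01 and −0.50, and with miR-25 as the only member it was 3.49, 0.02 and −0.01. No test was made of these averages over members, which share their samples and, in part, their transcripts.

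The signal of miR-92a, the one member that was abundant in some samples and without signal in others, was set beside other assays of card A. In mouse 2 it was the second most abundant member in both subsets, ranked 14 of 112 and 18 of 146 detected miRNAs. Of the 375 card A miRNAs, 18 (4.8%), miR-92a included, had a signal under 35 in both samples of mouse 2 and none in either sample of mouse 3, and the opposite contrast was shown by 9. The small nucleolar RNA controls snoRNA202, snoRNA135 and U87 had the same contrast. snoRNA202 had a Ct of 31.92, 22.97 and 40 in the Ly6Chigh and of 30.96, 18.99 and 40 in the Ly6Clow samples of mice 1, 2 and 3. miR-92a is one of the 24 assays listed last on card A. None of these was detected in the Ly6Chigh sample of mouse 1, against 8 to 13 in the other samples. In this block miR-17, its cluster partner, had a Ct of 21.95 to 24.97 in the 5 other samples, and miR-30a, miR-30e, miR-31, miR-322 and miR-685 were among the 18, as was miR-92a. The block was not uniform in this direction. let-7a, also in it, had the opposite contrast, listed at 40 in both samples of mouse 2 and detected in both samples of mouse 3. The part of card or well effects in the miR-92a signal was not tested.

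**Figure D4:**
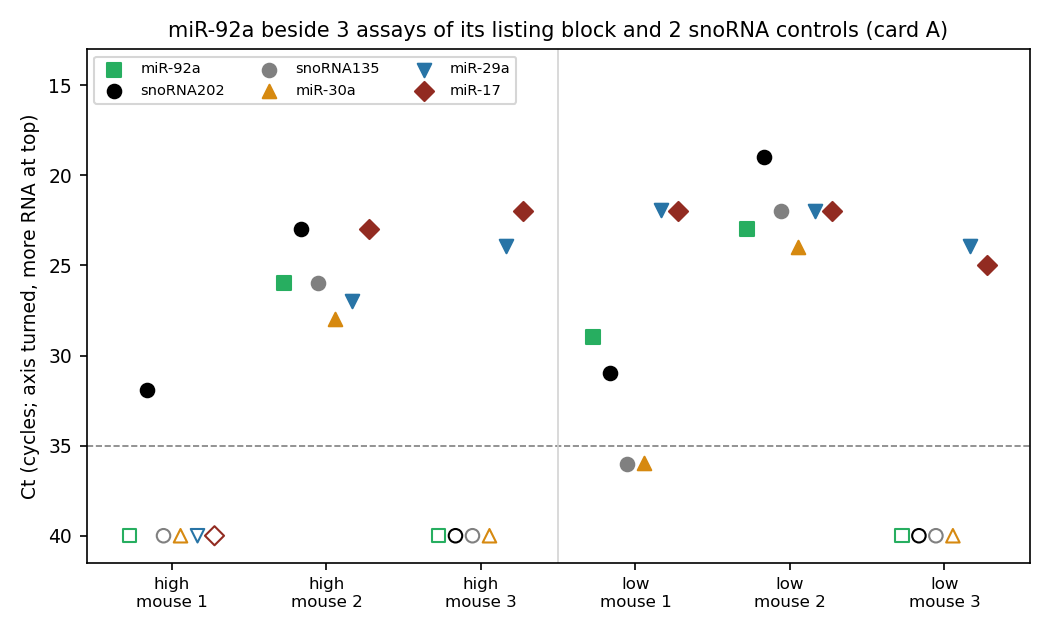
Ct (vertical axis, in cycles, turned so that more RNA is at the top) of miR-92a, of 3 further assays from the block of 24 in which it is listed (miR-30a, miR-29a and miR-17) and of the controls snoRNA202 and snoRNA135 on card A, in each sample (horizontal axis). Open symbols at 40 are reactions without signal and the dashed line marks the Ct of 35. miR-92a, miR-30a and both snoRNAs have no signal in either sample of mouse 3, where miR-17 and miR-29a are detected.

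The other miRNAs cut from the same precursors were read from the same fit. The 6 assays of the miR-17 seed (miR-17, miR-20a, miR-20b, miR-93, miR-106a and miR-106b), which act on cell cycle regulators, were all tested and 0 were called. Their differences lay between −4.14 and −2.81 with all samples, with a median of −3.48 against −0.45 over all tested assays. Each of the 6 was listed at 40 in the Ly6Chigh sample of mouse 1, and without this sample they lay between 0.87 and 2.40, with a median of 1.21 against 0.63 over all tested assays. The pair with the largest absolute difference with all samples were miR-20a, at −4.14 (standard error 4.47), and miR-106b, at −3.81 (4.25). In mice 2 and 3, miR-20a differed by 0.88 and 0.86 and miR-20b by 0.87 and 0.84, the step of miR-19b. The others did not hold this step in both mice. miR-17 differed by 2.91 and 1.88, miR-93 by 0.87 and 1.86, miR-106a by 2.86 and 0.82 and miR-106b by −0.11 and 0.84.

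Opposite strands of the members' precursors were read by 5 assays on the second card, and 2 of them passed the filter. The sample labels name only the rodent Pool A primers, so how the second card was primed is not given in the sources used here. miR-19a# had a signal in all 6 samples, with differences of 0.59, 1.80 and 2.44 in mice 1, 2 and 3 and a mean of 1.61 (standard error 1.63, limma adjusted p = 0.985), or 1.37 (1.43) without the Ly6Chigh sample of mouse 1. Relative to U6 its difference had the same sign in all 3 mice, also in mouse 1, where miR-19a on card A had −1.15. In raw Ct miR-19a# came later in Ly6Chigh than in Ly6Clow in mouse 1 (26.98 against 25.22) and mouse 2 (27.98 against 24.95). It came earlier in mouse 3 (25.99 against 29.99). miR-18a# was detected in 3 samples, the Ly6Chigh sample of mouse 3 and the Ly6Clow samples of mice 2 and 3, and not in the Ly6Chigh sample of mouse 1 with its high signal of miR-18a. Its mean difference was −0.45 (standard error 3.04) with all samples and 0.81 (3.42), with the sign turned, without that sample. miR-92a# was detected in 1 sample, the Ly6Clow sample of mouse 2, at a Ct of 34.98, where miR-92a also had its lowest Ct. The assays for miR-25# and miR-363# were listed at 40 in all samples.

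The assays whose Ct followed those of the members most closely were taken from the 36 other card A miRNAs detected in all 6 samples, after the mean Ct of all such assays was subtracted in each sample. Over the 6 samples they were miR-10a for miR-18a (Pearson r = 0.99), miR-125b-5p for miR-25 (0.93), miR-26b for miR-19b (0.89) and miR-203 for miR-19a (0.68). Without the Ly6Chigh sample of mouse 1 they were miR-27b for miR-18a (0.91) and for miR-25 (0.89), and miR-200c for both miR-19a and miR-19b (1.0 to 2 digits). All 4 nearest assays changed when this sample was left out. The points share their 6 samples and the steps of 1 cycle, and the correlations are given as a description.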

How the data were processed

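TaqMan low-density array values of 6 monocyte samples (3 Ly6Chigh, 3 Ly6Clow, paired by mouse in the labels) were used. The authors deposited raw Ct and ΔCt values, log2 quantities that are lower where there is more RNA. The ΔCt is the Ct minus the U6 Ct of the same sample and card. A further table, with the authors' own Ly6Chigh/Ly6Clow ratios, was not used. How Ct values were called (software, threshold) is not given in the sources used here. Of 768 wells, 18 controls were left out. The 201 of 750 assays that had signals below 35 cycles in 3 or more samples were tested on −ΔCt with limma 3.58.1 (lmFit, eBayes) in R 4.3.3, without a block, with Benjamini-Hochberg adjustment over all 201 and a threshold of 0.05. The limma fit was also run on simulated assays that had no steps near 1 cycle, no undetected reactions and no pairing by mouse. It therefore does not cover these features of the data. Undetected reactions kept their value of 40. Same-numbered samples come from 1 mouse, and their deviations from subset means correlated at 0.317, 0.615 and 0.722 in mice 1, 2 and 3. Precision is limited by the few arrays and by steps near 1 cycle. The p-values of the main fit measure the spread between the 3 mice within each subset, without the pairing by mouse.

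Alternatives were other normalizations, filters and treatments of undetected reactions, the mouse as a block, other variance models and left-out samples. Members, lists and alternatives were chosen with earlier results of these data known. The miRNAs named are the 8 members, the cluster partners (with the 2 largest differences), the listed cell type markers, the nearest assay of each member detected in all samples, and assays past the threshold (there were none). The nearest assays over 5 samples, the assays named beside miR-92a and those named above the step of miR-18a were added after values were seen. The marker list also held miR-181b, not analysed here. Epithelial markers were detected in 1 to 4 of 5 assays per sample, and liver, muscle and neuron markers in 1 to 3 of 6. Sequences and gene positions are from RefSeq (GRCm38.p6). Tables were handled in pandas 2.3.3 and numpy 2.4.6 under Python 3.11.15, with exact tests in scipy 1.17.1 and plots in matplotlib 3.10.9.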

Additional observations from a re-analysis of the deposited data

How the results depend on the processing

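The number of members past an adjusted p of 0.05 was 0 under all 22 alternatives, the replicate block for the mouse included, which changed no call (adjusted p 0.949 to 0.965 for the 6 tested members). The sign of single differences was less stable. For miR-19a (0.20) it turned with the median of detected assays (−0.35), without normalization (−1.67), with quantile normalization (−0.41), and without mouse 2 (−0.15) or mouse 3 (−0.13). The same held without the Ly6Chigh sample of mouse 2 (−0.61) or the Ly6Clow sample of mouse 3 (−0.26). For miR-19b (−0.13) it turned without mouse 1, alike with no block and with a replicate block (0.87). The difference was 0.89 with the Ly6Chigh sample of mouse 1 left out, or with only its card A as missing. Without the Ly6Clow sample of mouse 2 it was 0.35. For miR-25 (1.20) it turned without normalization (−0.67), where the median of all tested assays was −2.32 against −0.45. For miR-92a (−2.81) and miR-32 (−2.48) it turned with undetected reactions as missing (4.37 and 0.28). For miR-32 the sign also turned with a floor at 35 cycles (0.86). That of miR-92a also turned without the Ly6Chigh sample of mouse 3 (0.49) or the Ly6Clow sample of mouse 2 (0.99). The mean difference of miR-18a stayed positive under all alternatives, between 1.86 and 4.88. No alternative joined raw Ct with leaving out the Ly6Chigh sample of mouse 1. Without normalization the difference was 4.98, −2.03 and 3.00 in mice 1, 2 and 3, so that its sign turned in mouse 2. With the median of detected assays it was 1.46 and 1.00 in mice 2 and 3, and with quantile normalization 0.56 and 0.52. With samples or mice left out, the differences ranged from 1.86 to 4.88 for miR-18a, −0.61 to 0.88 for miR-19a, −1.11 to 0.89 for miR-19b, 0.85 to 1.41 for miR-25, −3.85 to −1.29 for miR-32 and −8.47 to 0.99 for miR-92a.

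The mean difference of the miR-19 family (0.03) was −1.83 without normalization, and that of the miR-25/92 family (−1.36) was −3.23 without normalization, 1.03 with undetected reactions as missing, 1.20 with members detected in all samples only and 0.30 with the floor at 35 cycles. With samples or mice left out it ranged from −3.18 without the Ly6Chigh sample of mouse 2 to −0.17 without that of mouse 1 and −0.01 without the Ly6Clow sample of mouse 2. The gap between the miR-25/92 and miR-19 families (−1.40) was 0.27 with the floor at 35 cycles, 1.00 with undetected reactions as missing and 1.16 with members detected in all samples only, and −2.32 to −0.51 with samples or mice left out. The gap between the miR-18 and miR-19 families averaged 0.99 to 5.74, the lowest value without mouse 1, and under quantile normalization it was −0.27 in mouse 2. The causes of these changes were not tested.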
